A study of Arabidopsis thaliana with 12 samples.

Results

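The alpha and beta tubulin genes were followed on 12 two-colour arrays that set RNA from the aerial parts of Arabidopsis thaliana transformants beside RNA from the wild type Col-0. They are all the probes whose gene symbol is TUA or TUB followed by a digit: 10 probes for 10 genes out of 21500 probes in all, 5 alpha tubulins (TUA1, TUA2, TUA3, TUA5, TUA6) and 5 beta tubulins (TUB1, TUB5, TUB6, TUB7, TUB9). The TAIR10.1 gene table lists 15 genes with such symbols. TUA4, TUB2, TUB3, TUB4 and TUB8 have no probe named for them and were not analysed here.

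The 6 lines were re-transformants of the rice full-length cDNA clones AK069096, AK073112, AK073675, AK065297, AK102323 and AK073210 and are named here by the clone, with 2 arrays each. Col-0 is the other channel of every array, so no group of arrays is Col-0 alone. The sources used here do not give the promoter driving each cDNA, the product of the cDNA, the plants' age, or how many plants or independent transformants stand behind an array. Growth was at 22 °C, with days of 16 h light and 8 h dark.

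Microtubules are hollow polymers of dimers made of an alpha and a beta tubulin. In plants they guide the cellulose synthase complexes that lay down the wall and so set the direction of cell growth, and in dividing cells they form the preprophase band, the spindle and the phragmoplast that builds the new wall. Each tubulin is encoded by a small family whose proteins are nearly alike, and some of them are identical: TUA3 and TUA5 encode the same protein, as do TUA2 and TUA4. TUA3 and TUA5 are also direct neighbours in the genome, with 0 annotated genes between them. The probe sequences were not used here, and probes for genes this similar may read each other's transcripts, so the values of TUA3 and TUA5, and those of TUA2 and TUA6, cannot be taken as fully separate measurements.

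Each value is the deposited log ratio of an array's channels, put on the log2 scale on the reading that it was deposited as log10. The direction of the ratio is not settled. Agilent's software divides red by green, which would put Col-0 over the transformant, since the labels give Cy3 to the transformant and Cy5 to Col-0, while the titles name the transformant first. A value is therefore described as lying on the positive or the negative side, and never as higher or lower in a transformant. No dyes were swapped, so any dye effect on a probe, and anything peculiar to Col-0 RNA that the arrays share, is part of each comparison with Col-0. Both drop out of a difference between lines. A ratio holds no level, so neither the abundance of a tubulin transcript nor the presence of the labelled tissue could be checked.

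The standard deviation of the log2 ratios over all probes lay between 0.395 and 0.675 on the 12 arrays, and each array's median was 0. The replicates of AK073112 stood apart. They correlated across all probes at r = 0.352, against 0.586 or more in each other line, and AK073112 replicate 2 correlated with the AK069096 arrays at 0.799 and 0.816. Calls that change without an AK073112 array are given below with their values. The standard errors (SE) and p-values measure the spread between the arrays of a line, pooled over the lines. Variation between lines is not part of that spread, also for the mean of all lines. The spread may be technical, since the sources used here do not say if a line's replicates were separate plants.

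In the mean of all 6 lines against Col-0, the 10 tubulin genes lay on the negative side without exception, beside 48.6% of all probes. Of the 10 genes 6 passed the test: TUB5, TUA5, TUB1, TUA3, TUA6 and TUB9. Their means ran from -0.64 for TUB5 to -0.15 for TUA6, which is a 1.56-fold and a 1.11-fold difference in size. The test was limma's moderated test with Benjamini-Hochberg adjustment over all 21494 probes that had a value on every array, with an adjusted p under 0.05 as the threshold. Of all probes 50.9% passed in the same comparison, 24.5% on the negative side and 26.4% on the positive side. No tubulin passed on the positive side. The median of the 10 means was -0.17, with -0.15 for the alpha and -0.18 for the beta genes, beside a median of 0.0059 over all probes.

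**Figure D1:**
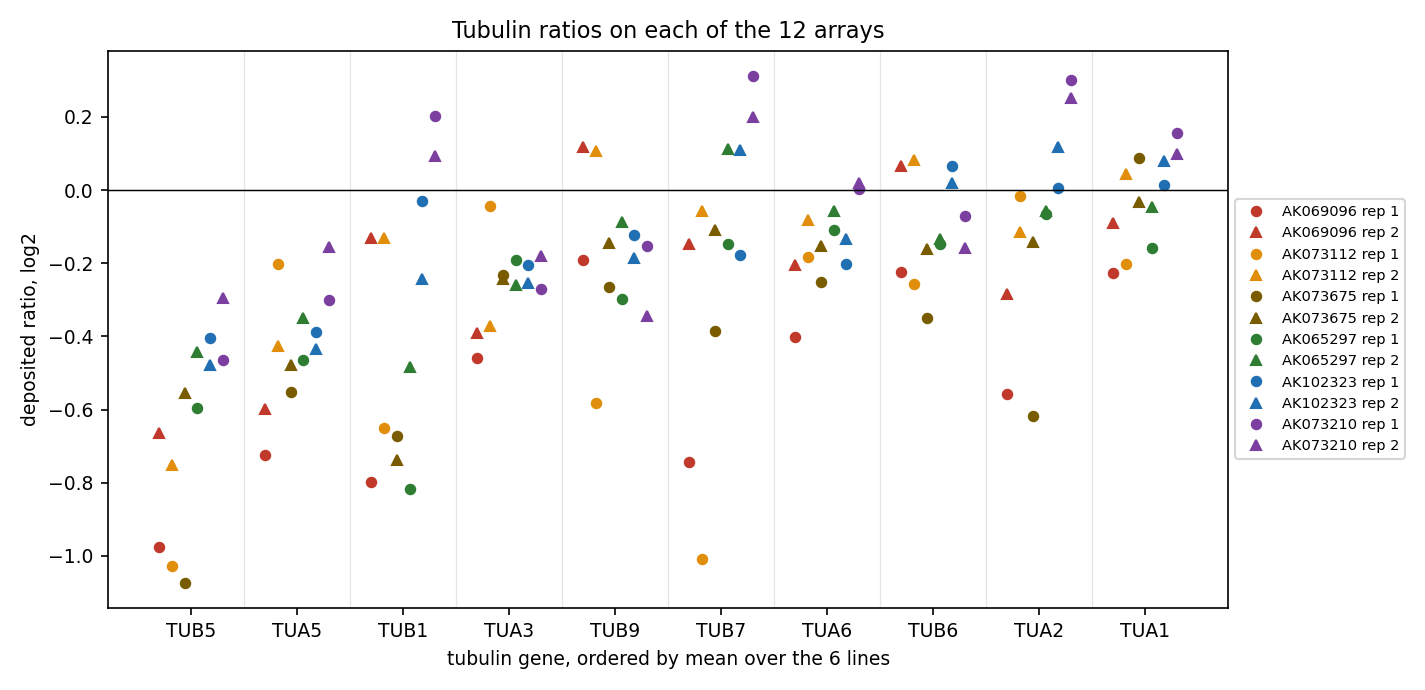
Log2 of the deposited ratio (vertical axis) of the 10 tubulin genes on every array, with genes ordered by their mean, lines in colour, replicate 1 as circles and replicate 2 as triangles. TUB5, TUA5 and TUA3 lie below 0 on all 12 arrays, and the AK073210 points are the uppermost for TUB1, TUB7, TUA6, TUA2 and TUA1.

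TUB5 lay farthest on the negative side. It is a beta tubulin gene with the locus code AT1G20010. Its ratio was -0.98 and -0.66 on replicates 1 and 2 of AK069096, -1.03 and -0.75 in AK073112, -1.07 and -0.55 in AK073675, -0.59 and -0.44 in AK065297, -0.41 and -0.48 in AK102323, and -0.47 and -0.30 in AK073210. All 12 arrays were negative, and AK069096, AK073112 and AK073675 had the 5 lowest of the 12 values with the sixth of their arrays close to AK065297 replicate 1. The mean over lines was -0.64 ± 0.06 (SE, n = 12 arrays, limma adjusted p = 0.000111). Only 3.7% of all probes had a lower mean. TUB5 was the lowest of the 10 tubulins on 8 of 12 arrays.

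TUA5, with the locus code AT5G19780, was the lowest of the alpha tubulins on 9 of 12 arrays. Its values were -0.72 and -0.60 in AK069096, -0.20 and -0.43 in AK073112, -0.55 and -0.48 in AK073675, -0.47 and -0.35 in AK065297, -0.39 and -0.44 in AK102323, and -0.30 and -0.16 in AK073210. It too was negative on all 12 arrays, and its replicates lay closer together than those of any beta tubulin, with a standard deviation within lines of 0.0949, against 0.204 for TUB5. The mean was -0.42 ± 0.03 (SE, n = 12, limma adjusted p = 7.46e-05), the smallest adjusted p among the tubulins.

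TUA3, AT5G19770, whose protein is the same as that of TUA5, had ratios of -0.46 and -0.39 in AK069096, -0.0435 and -0.37 in AK073112, -0.23 and -0.24 in AK073675, -0.19 and -0.26 in AK065297, -0.21 and -0.26 in AK102323, and -0.27 and -0.18 in AK073210. It was the third gene on the negative side on all 12 arrays, where 7.41% of all probes were negative on all 12. Its mean was -0.26 ± 0.04 (SE, n = 12, limma adjusted p = 0.000732). On 11 of 12 arrays TUA5 lay below TUA3. The difference TUA5 minus TUA3 ran from -0.32 on AK073675 replicate 1 to 0.024 on AK073210 replicate 2.

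TUA6, AT4G14960, is the alpha tubulin most often fused to fluorescent proteins to show plant microtubules, and its shifts were small. It had -0.40 and -0.20 in AK069096, -0.18 and -0.082 in AK073112, -0.25 and -0.15 in AK073675, -0.11 and -0.058 in AK065297, and -0.20 and -0.13 in AK102323. In AK073210 it had 0.0024 and 0.021, the only values of this gene that were not negative. The mean of -0.15 ± 0.03 (SE, n = 12, limma adjusted p = 0.00506) passed. Its replicates were the closest of the 10 genes, with a standard deviation within lines of 0.0745.

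TUB1, AT1G75780, is a beta tubulin gene known to be repressed by light in seedlings. Its ratios were -0.80 and -0.13 in AK069096, -0.65 and -0.13 in AK073112, -0.67 and -0.74 in AK073675, -0.82 and -0.485 in AK065297, -0.030 and -0.24 in AK102323, and 0.20 and 0.093 in AK073210. It was negative on both arrays of 5 lines and positive on both arrays of AK073210. The mean was -0.37 ± 0.07 (SE, n = 12, limma adjusted p = 0.00411). The line means of TUB1 had a standard deviation of 0.32, which this SE does not include. Both arrays were negative in at least 5 of the 6 lines for 5 of the 10 genes, TUA3, TUA5, TUA6, TUB1 and TUB5, where 16% of all probes had that pattern. These 5 genes also kept their call when any single array was left out.

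TUB9, AT4G20890, a beta tubulin gene with pollen expression, was near the threshold. It had -0.19 and 0.12 in AK069096, -0.58 and 0.11 in AK073112, -0.27 and -0.14 in AK073675, -0.30 and -0.086 in AK065297, -0.12 and -0.19 in AK102323, and -0.15 and -0.35 in AK073210. The mean of -0.18 ± 0.06 (SE, n = 12, limma adjusted p = 0.0475) passed, with the AK069096 and AK073112 replicates on opposite sides of 0. The call was lost when any 1 of 9 arrays was left out: either array of AK065297, AK073675, AK102323 or AK073210, or AK069096 replicate 1. Without AK069096 replicate 1 the mean was -0.15 with an adjusted p of 0.116, the highest over the alternatives.

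The other 4 genes did not pass in the mean of the lines. TUB7, AT2G29550, had the widest spread, with -0.74 and -0.15 in AK069096, -1.01 and -0.0565 in AK073112, -0.39 and -0.11 in AK073675, -0.15 and 0.11 in AK065297, -0.18 and 0.11 in AK102323, and 0.31 and 0.20 in AK073210. Its mean was -0.17 ± 0.09 (SE, n = 12, limma adjusted p = 0.159). It depended on AK073112 replicate 2: without it the mean was -0.25 with an adjusted p of 0.0209, and without AK073112 replicate 1 it was -0.091. The standard deviation within lines was 0.354 for TUB7, the largest of the 10.

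TUA2, AT1G50010, had -0.56 and -0.285 in AK069096, -0.016 and -0.12 in AK073112, -0.62 and -0.14 in AK073675, -0.065 and -0.0575 in AK065297, 0.0053 and 0.12 in AK102323, and 0.30 and 0.25 in AK073210. The mean was -0.10 ± 0.05 (SE, n = 12, limma adjusted p = 0.121), made of 8 negative and 4 positive arrays. It passed without AK073675 replicate 2, at -0.14 with an adjusted p of 0.0228. TUB6, AT5G12250, ranged from -0.35 to 0.083 with 8 negative arrays and had a mean of -0.11 ± 0.04 (adjusted p = 0.0727). With quantile normalization it passed, beside 52.6% of all probes, and without both AK073112 arrays too, beside 55.6%. It passed at -0.13 without AK069096 replicate 2 (adjusted p = 0.0465) and at -0.13 without AK073112 replicate 2 (adjusted p = 0.0189). TUA1, AT1G64740, an alpha tubulin gene best known from pollen, was closest to 0, with values from -0.23 to 0.16, 6 negative and 6 positive arrays and a mean of -0.023 ± 0.034 (adjusted p = 0.604).

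**Figure D2:**
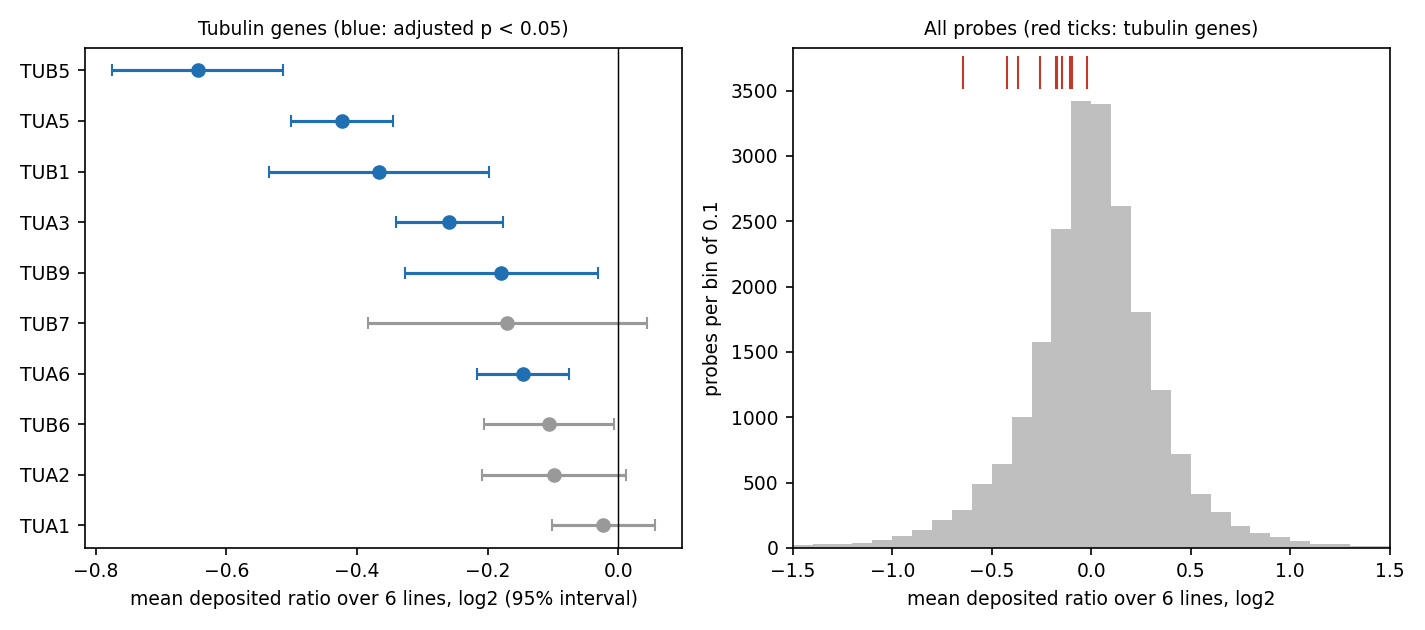
Left, the mean log2 ratio of each tubulin gene over the 6 lines with its 95% interval, in blue where the adjusted p was under 0.05. Right, the number of probes in bins of 0.1 of the same mean, with the tubulin genes as red ticks: all 10 ticks lie below 0, between -0.64 and -0.023, and means beyond the range of the axis are not drawn.

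Each line was also set against Col-0 by itself. The mean then came from the 2 arrays of the line, but the SE came from the spread within lines, pooled over all lines. TUB5 therefore had the same SE in every line. The standard deviation of its replicates ran from 0.05 in AK102323 to 0.37 in AK073675. The gaps between the AK073112 arrays are thus part of the SE of every line. In AK069096 5 of 10 genes passed, all on the negative side: TUB5 at -0.82 ± 0.14 (SE, n = 2 arrays, limma adjusted p = 0.00507), TUA5 at -0.66, TUA3 at -0.43, TUA2 at -0.42 and TUA6 at -0.30. Of all probes 15.3% passed on the negative side of this comparison. With quantile normalization the count was 3 in AK069096, where 18.9% of all probes passed on either side. The mean over the 10 genes was -0.38, and 8 genes had both arrays negative. Without AK069096 replicate 1 only TUA5 kept its call, at -0.60. TUB5 then stood at -0.66, TUA3 at -0.39, TUA6 at -0.20 and TUA2 at -0.285. Without replicate 2 TUA3 and TUA2 lost their calls, at -0.46 and -0.56. The line then had 1 array in each fit, and calls over all probes also fell.

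In AK073112 2 genes passed, TUB5 at -0.89 ± 0.14 (n = 2 arrays, limma adjusted p = 0.00516) and TUA5 at -0.31 ± 0.08 (adjusted p = 0.0338), where 10% of all probes passed on the negative side. This line had the widest gaps between its arrays. TUB7 lay at -1.01 on replicate 1 and -0.0565 on replicate 2, and TUB9 at -0.58 and 0.11. TUB7 passed without replicate 2 (adjusted p = 0.0214), as did TUB9 (adjusted p = 0.0262), while TUA5 did not, at -0.20 (adjusted p = 0.159). Without replicate 1 TUA3 passed at -0.37 (adjusted p = 0.00936). Of all probes 22.5% passed without replicate 2 and 31.1% without replicate 1. TUA5 also lost its call without either AK065297 array (adjusted p = 0.0508) or either AK102323 array (adjusted p = 0.0614). With array weights neither gene passed (adjusted p = 0.26 for TUB5 and 0.499 for TUA5), and with quantile normalization TUA5 did not (adjusted p = 0.0996). Of all probes 0.0186% and 12% passed in AK073112 under those settings.

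AK073675 had TUB5 at -0.81 ± 0.14 (n = 2 arrays, limma adjusted p = 0.022) and TUA5 at -0.51 ± 0.08 (adjusted p = 0.019) past the threshold, beside 3% of all probes on the negative side. TUB1 had its lowest line mean here, -0.70 ± 0.18 (adjusted p = 0.0605). Without replicate 1 of this line neither gene kept its call, with TUB5 at -0.55 and TUA5 at -0.48. Without replicate 2 TUA5 lost its call at -0.55, and TUA2 gained one at -0.62. The line then had 1 array in each fit, and calls over all probes also fell. Without either AK073112 array TUB1 (adjusted p = 0.0278) and TUA3 (adjusted p = 0.0234) passed as well at the same values, where 18.9% of all probes then passed. With quantile normalization 7 of 10 passed in AK073675, beside 17.3% of all probes.

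In AK065297 and AK102323 TUA5 was the single gene past the threshold. It stood at -0.41 ± 0.08 in AK065297 (n = 2 arrays, limma adjusted p = 0.0322), where 3.31% of all probes passed on the negative side, and at -0.41 ± 0.08 in AK102323 (adjusted p = 0.0372), where 2.06% did. Both calls were close to the threshold. In AK065297 it was lost without either array of that line, at -0.35 without replicate 1 and -0.47 without replicate 2. It was also lost there without either AK073675 array or either AK102323 array. In AK102323 it was lost without either array of that line, at -0.44 without replicate 1 and -0.39 without replicate 2. It was also lost there without either array of AK065297, AK069096 or AK073675. Each of these fits left 1 line with 1 array, and calls over all probes also fell in each. Without either AK073112 array 4 genes passed in AK065297, TUA5, TUB5 (adjusted p = 0.0414), TUB1 (adjusted p = 0.035) and TUA3 (adjusted p = 0.0274), and 2 in AK102323, TUA5 and TUA3 (adjusted p = 0.0305). Of all probes 18.5% then passed in AK065297 and 14.4% in AK102323, on either side.

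AK073210 had 0 of 10 tubulins past the threshold by limma, beside 9.69% of all probes on either side. At an unadjusted p under 0.05 there were 4 of 10, beside 27.5% of all probes. Its 10 line means were split evenly, 5 on each side. TUB5 at -0.38, TUB9 at -0.25, TUA5 and TUA3 at -0.23 each and TUB6 at -0.12 were negative, and TUA2 at 0.28, TUB7 at 0.26, TUB1 at 0.15, TUA1 at 0.13 and TUA6 at 0.011 were positive. Without either AK073112 array TUA3 (adjusted p = 0.0234) and TUA5 (adjusted p = 0.0443) passed, on the negative side, where 23.1% of all probes then passed on either side. TUA5 thus passed in 5 lines, TUB5 in 3, and TUA2, TUA3 and TUA6 in 1 each. These comparisons share the Col-0 channel, and passing in one line and not in another does not show that the lines differ.

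Differences between the lines were tested directly, and none of the 10 tubulins passed. By limma's F-test over the 6 line means 0 passed the threshold, with 1 at an unadjusted p under 0.05, TUA2 (adjusted p = 0.15). Of all probes 3.36% passed that test, and 22.6% had an unadjusted p under 0.05. The other adjusted p-values ran from 0.246 for TUA5 and 0.252 for TUB1 to 0.948 for TUB9. For TUB9 the line means differed less than the arrays within lines, with standard deviations of 0.0778 and 0.236. The contrast was the other way round for TUA2, with 0.265 between line means and 0.165 within lines.

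AK073210 lay above the other lines in most of the genes. It had the highest line mean for 7 of 10 genes, and AK069096 had the lowest for 5. The shares of all probes for which these lines are highest or lowest are not given here. The median difference of AK073210 from the other 5 lines was 0.21 over the 10 genes and -0.0020 over all probes. For TUA1, TUA2, TUA6, TUB1 and TUB7 both AK073210 arrays lay above all 10 other arrays, which was so for 4.49% of all probes. TUB1 had a mean of 0.15 in AK073210 and of -0.47 in the other 5 lines, a difference of 0.62 with a 95% interval from 0.17 to 1.07 (limma adjusted p = 0.189). TUA2 had a mean of 0.28 in AK073210 and of -0.17 in the others, a difference of 0.45 with an interval from 0.15 to 0.75 (adjusted p = 0.152). For TUB7 the difference was 0.51, with an interval from -0.061 to 1.08. By limma 0 of 10 genes passed in this comparison, beside 1.45% of all probes, and 4 had an unadjusted p under 0.05, beside 15.5% of all probes. These differences are sizes and intervals without a call.

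Comparing AK069096 with the mean of the other 5 lines, 8 of 10 differences were negative and 0 passed by limma, beside 1.15% of all probes. The median difference was -0.19 over the 10 genes and 0.0044 over all probes. At an unadjusted p under 0.05 there were 2 of 10, beside 23.9% of all probes. TUA2 had -0.42 in AK069096 and -0.034 in the others, a difference of -0.39 with a 95% interval from -0.68 to -0.091 (adjusted p = 0.138). TUA5 had -0.66 in AK069096 and -0.375 in the others, a difference of -0.29 (adjusted p = 0.128). Without AK073112 replicate 2, TUA5 passed at -0.31 (adjusted p = 0.0215) and TUA3 at -0.23 (adjusted p = 0.026), 2 of 10 where 26.6% of all probes then passed.

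The other 4 lines against the rest gave 0 calls each by limma. At an unadjusted p under 0.05 there was 1 gene for AK073675, beside 11.2% of all probes. There were 0 for AK073112, AK065297 and AK102323, beside 19.8%, 10.3% and 11% of all probes. Of all probes 2.79% passed for AK073112, 0.0791% for AK102323, 0.0093% for AK065297 and 0% for AK073675. For AK073112, TUB7 passed without replicate 2, at -0.91 (adjusted p = 0.0353), 1 of 10 where 22.1% of all probes then passed.

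**Figure D3:**
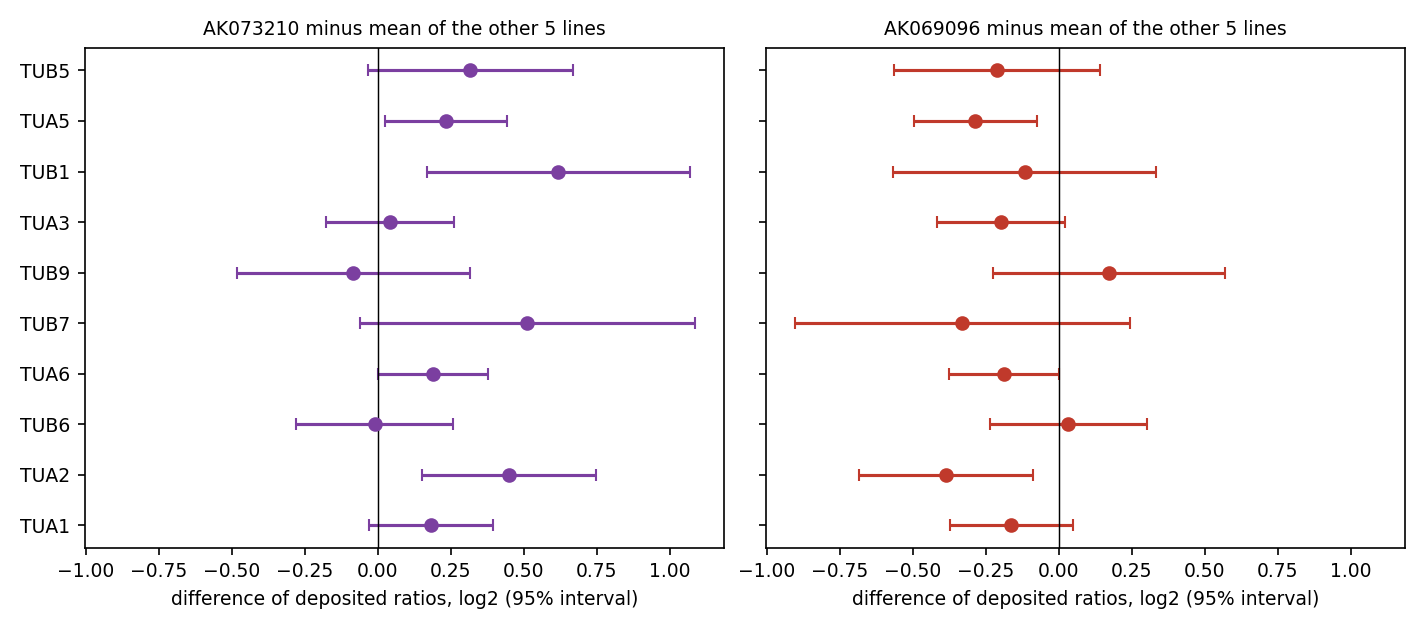
Difference in log2 ratio between a line and the mean of the other 5 lines, with 95% intervals, for AK073210 (left) and AK069096 (right), the genes ordered as in the plot of the means. In AK073210 8 points lie right of 0, in AK069096 8 lie left of it, and no gene passed the threshold in either.

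The order of the lines was similar for several genes. From low to high it began with AK069096 and AK073675 for TUA2, TUA3, TUA5 and TUA6. AK102323 and AK073210 were the highest pair for TUA1, TUA2, TUB1 and TUB5. Most neighbours in an order could not be told apart: of the 50 steps between neighbouring lines, the arrays of both lines were free of overlap in 11, and over all probes in 21.5% of steps. Those 11 steps were 3 for TUA2, 2 for TUA5, 1 each for TUA1, TUA3, TUA6, TUB1, TUB6 and TUB7, and 0 for TUB5 and TUB9. In TUA1, TUA2, TUA6, TUB1 and TUB7, 1 of them lay just below AK073210. The lowest and highest line did not overlap for 9 of 10 genes, beside 85.5% of all probes. For 6 of the 10, at least 1 line had both arrays negative and another both positive, beside 36.7% of all probes.

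The genes varied together to differing degrees over the 12 arrays. Pearson's r was positive for 38 of 45 pairs of genes, with a median of 0.456. The share of positive pairs among other probes is not given here. These r values describe 12 arrays of 6 lines that share a Col-0 channel and are not independent. The closest pairs were TUA2 with TUA6 at 0.835, TUB5 with TUB7 at 0.833 and TUA2 with TUA5 at 0.812. Without the AK073112 arrays these pairs stood at 0.866, 0.825 and 0.861 and were no longer the closest. The closest were then TUA6 with TUB7 at 0.954, TUA2 with TUB5 at 0.926 and TUA5 with TUA6 at 0.917. TUA3 and TUA5, the neighbours with the same protein, had 0.755. TUB9 ran against the alpha genes TUA3 (-0.775, and -0.545 without AK073112) and TUA5 (-0.467, and -0.345), while TUB9 and TUB6 had 0.709.

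**Figure D4:**
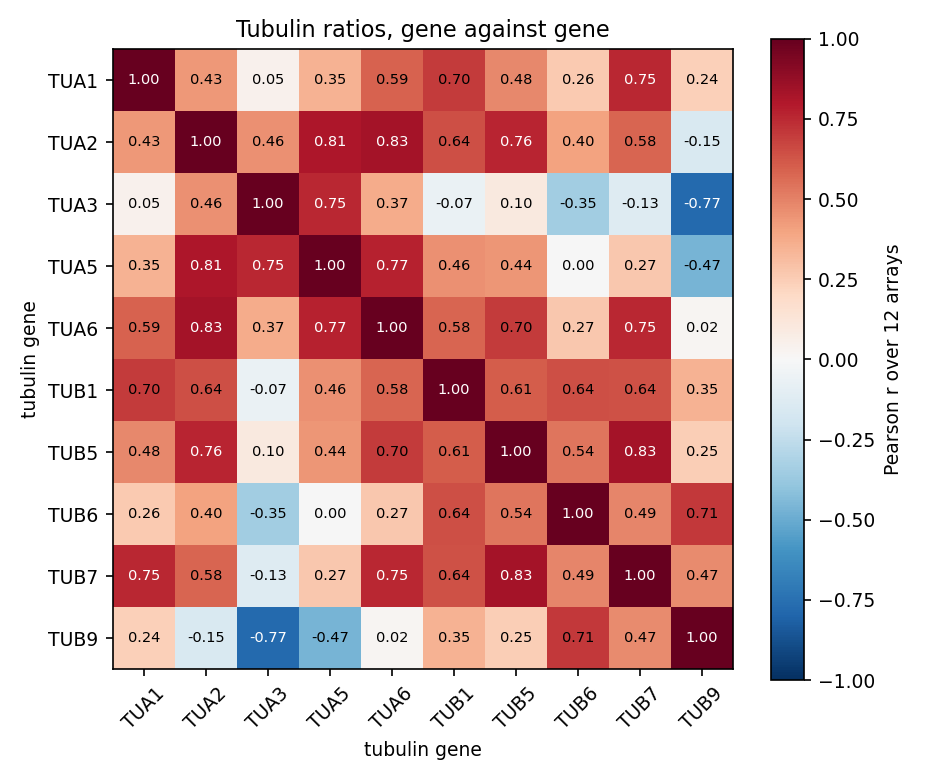
Pearson's r between the log2 ratios of each pair of tubulin genes over the 12 arrays, red for positive and blue for negative. All 10 pairs of alpha genes and all 10 pairs of beta genes are positive, and the 7 negative pairs are all of an alpha with a beta gene. For the beta genes this depends on the arrays used: TUB7 with TUB9 was at -0.0064 without the AK073112 arrays. Over the 6 line means TUB9 was negative with TUB7 (-0.388), TUB5 (-0.251) and TUB1 (-0.242).

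Among the 1307 other probes with a gene symbol, the one whose ratios over the 12 arrays were most like those of each tubulin was picked by Pearson's r, as a description of the pattern. For both TUA2 (r = 0.926) and TUA6 (r = 0.866) it was KINESIN-12B, a motor protein gene of the phragmoplast. Its ratios were -1.49 and -0.99 in AK069096, -0.59 and -0.83 in AK073112, -1.63 and -0.55 in AK073675, -0.40 and -0.43 in AK065297, -0.80 and -0.39 in AK102323, and -0.14 and 0.45 in AK073210. For TUA5 it was IQD19 (r = 0.917), of a family of calmodulin-binding proteins many of which bind microtubules. IQD19 was highest in AK073210, with 0.48 and 0.59, and lowest on AK069096 replicate 1, with -1.16.

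For TUB1 the most similar was the actin gene ACT11 (r = 0.831). For TUB5 it was AT-HF (r = 0.957), a gene of histidine synthesis, whose ratios stayed within -0.34 and 0.072. TUA3 was closest to GSA1 (r = 0.923), of early tetrapyrrole synthesis, and TUA1 to DRT100 (r = 0.870). TUB6 was closest to VCR (r = 0.901), TUB7 to ATERDJ2A (r = 0.896, and 0.800 without the AK073112 arrays) and TUB9 to the ubiquitin-conjugating enzyme gene UBC36 (r = 0.933). With 12 arrays and 1307 candidates, a high r for the best of them is built into the choice.

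Few other genes of microtubules had a named probe, and they lay on both sides in the mean of the 6 lines. TUBG1, the gamma tubulin that starts new microtubules and 1 of 14 listed nucleation genes found in the gene table, was on the positive side at 0.26 ± 0.06 (limma adjusted p = 0.00663, negative on 1 of 12 arrays). POR, the tubulin folding cofactor C and the single folding gene measured, was on the negative side at -0.23 ± 0.03 (adjusted p = 0.00101, negative on 11 of 12 arrays). KINESIN-12B, the single kinesin of the list with a probe, stood at -0.65 ± 0.11 (adjusted p = 0.00162, negative on 11 of 12 arrays). Of the microtubule-associated proteins 0 of 4 passed by limma, beside 50.9% of all probes. At an unadjusted p under 0.05 there were 0, beside 57.3% of all probes. The 4 were SPR1, which acts at growing microtubule ends (0.11), its relative SP1L2 (0.24), ATMAP65-6, of the family that bundles microtubules (-0.048), and the gene listed as WDL3 (-0.14).

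Of the wall and actin genes that work beside microtubules, both measured actins passed, beside 50.9% of all probes. ACT11 lay on the negative side at -0.38 ± 0.04 (limma adjusted p = 0.000292, 12 of 12 arrays negative). ACT12 lay on the positive side at 0.45 ± 0.07 (limma adjusted p = 0.00165). COB, which orients cellulose in expanding cells, was at -0.25 ± 0.04 (adjusted p = 0.00162, 12 of 12 arrays negative). Of 9 expansin genes, which loosen walls during growth, 2 passed on the negative side, EXPA8 the farthest at -1.37, and 4 on the positive side, EXPA15 and EXPA9 the farthest at 0.78 each, so that 6 of 9 passed beside 50.9% of all probes. EXPA16 stood at -0.37 without passing (adjusted p = 0.126). PRL, the single marker of dividing cells with a probe, was at -0.48 ± 0.07 (adjusted p = 0.00121, 12 of 12 arrays negative).

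Among the markers of other organs, VGD1 and VGDH1 passed the F-test between lines (limma adjusted p = 0.0195 and 0.0123), while the anther, root and photosynthesis markers and ACT12 did not. All 3 measured pollen genes lay on the positive side in AK073210, the pectin methylesterase genes VGD1 at 3.85 (limma adjusted p = 0.00192) and VGDH1 at 2.74 (adjusted p = 0.00176) and the pollen actin gene ACT12 at 0.60 (adjusted p = 0.0771). ACT12 did not set this line apart. It had 0.22 and 0.98 in AK073210 and 0.54 and 0.96 in AK069096, and was negative on 1 of 12 arrays. The mean of the 3 pollen genes was 2.09 and 2.70 on the AK073210 arrays and ran from -0.72 to 0.39 on the 10 others. The tubulins known from pollen did not share that size. TUA1 had 0.16 and 0.099 on the same arrays, above its other 10 values but under 0.2 in size, and TUB9 had -0.15 and -0.35. The part of flowers or pollen in the tubulin values of AK073210 was not tested.

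**Figure D5:**
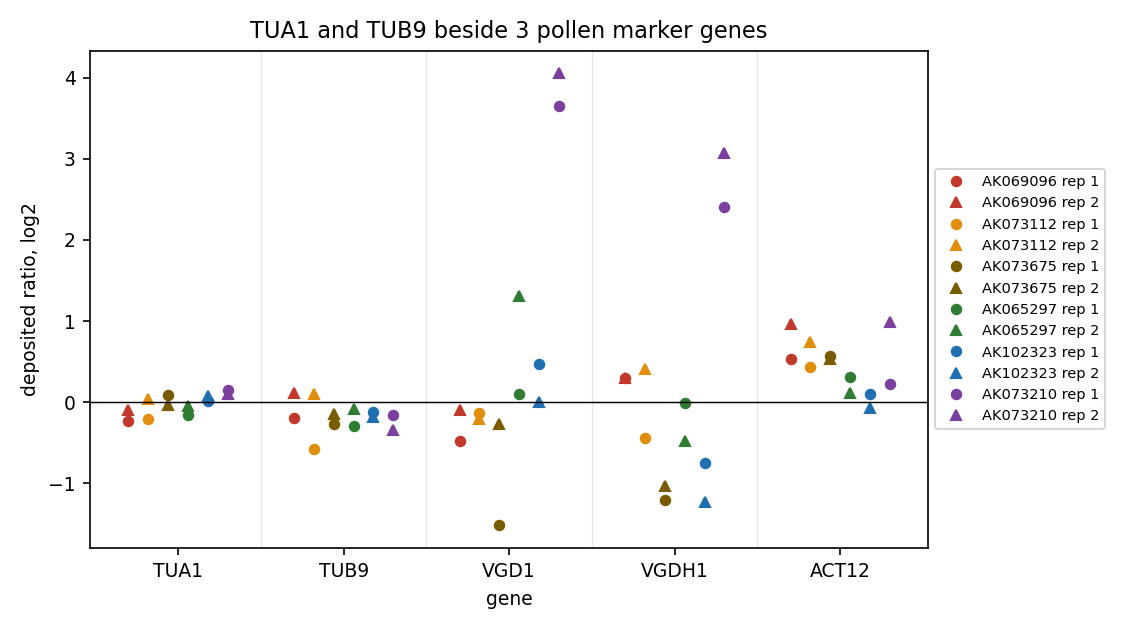
Log2 of the deposited ratio of TUA1 and TUB9 and of the 3 measured pollen marker genes on each array, lines in colour, replicate 1 as circles and replicate 2 as triangles. VGD1 and VGDH1 lie between 2.41 and 4.05 in AK073210, where TUA1 and TUB9 lie between -0.35 and 0.16.

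The anther gene AT5G07230, the single anther marker with a probe, stood at 0.14 in AK073210 and did not pass in the mean of the lines (-0.024, limma adjusted p = 0.665). Of 5 photosynthesis genes 4 passed on the negative side in the mean of the 6 lines, with a median of -0.55, beside 24.5% of all probes on that side. Their mean was between -1.03 and -0.23 on 11 arrays and 0.14 on AK073112 replicate 1. Of 3 root markers 1 passed, EXPA18 on the positive side at 0.48, beside 26.4% of all probes on that side. PYK10 stood at -0.15 in the mean and at -2.29 in AK073210 (limma adjusted p = 0.0292). In whole aerial parts, a different number of cells that hold a transcript and a different amount of it per cell cannot be told apart. Whether these markers account for any tubulin value was not tested.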

How the data were processed

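Agilent Feature Extraction 7.1.1 is named in the submitters' processing notes. The authors deposited 1 log ratio per probe and array. No log base is stated. The values deposited by the authors were read as log10 ratios, which that program writes, and converted to log2 here. Adjusted p-values do not depend on the base, but every printed log2 value does. The sources used here do not state the background correction or the dye normalization. Per the labels, 1 µg of total RNA was labelled for each sample, Cy3 for the transformant and Cy5 for Col-0.

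Of 21500 probes, 9335 are listed with 1 gene, 40 with several and 12125 with none; 9317 matched TAIR10.1 by gene ID, and 1317 carry a symbol. Lines came from the titles, since all descriptions repeat 1 clone. limma 3.58.1 in R 4.3.3 fitted a mean per line to 21494 probes (6 residual and 1.88 prior degrees of freedom), tested on simulated data. Tests were two-sided, adjusted over all probes. The 12 arrays are the limit on precision.

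The members, the tests and the gene lists (nucleation, folding, microtubule-associated proteins, kinesins, actin, cellulose synthesis, expansins, and markers of pollen, anther, root, photosynthesis and division) were chosen with earlier results of these data known. Every tubulin probe is named. From a list at most 4 genes are named, those with the lowest and highest means first, and for likeness the best match of each tubulin. Alternatives were quantile normalization, a replicate block, exact zeros as missing, array weights, no AK073112 arrays, each array left out, the values taken as log2, and probes of a gene averaged.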

Additional observations from a re-analysis of the deposited data

Results flagged for a closer look

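For 6 of the 10 tubulins, at least 1 line had both arrays on the positive side and at least 1 other line had both on the negative side. Over all probes 36.7% had such a pattern. The differences below are between the highest and the lowest of those lines, chosen by their values; they were not tested themselves, and the F-test over all lines passed for none of the 6 genes. TUB1 differed by 0.85 between AK073210 (0.15) and AK073675 (-0.70), with 5 lines negative on both arrays. TUB7 differed by 0.79 between AK073210 (0.26) and AK073112 (-0.53), and TUA2 by 0.70 between AK073210 (0.28) and AK069096 (-0.42). TUA6 differed by 0.31 between AK073210 (0.011) and AK069096 (-0.30), and TUA1 by 0.29 between the same lines (0.13 and -0.16). TUB6 differed by 0.30 between AK102323 (0.043) and AK073675 (-0.26). The adjusted p-values of the F-test were 0.252 for TUB1, 0.463 for TUB7, 0.15 for TUA2, 0.397 for TUA6, 0.472 for TUA1 and 0.684 for TUB6.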

How the results depend on the processing

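No call of a tubulin changed side under any alternative. In the mean of the 6 lines 6 or 7 genes passed under the settings that left no single array out. Of all probes 46.7% passed there with array weights and 55.6% without both AK073112 arrays. TUA3, TUA5, TUA6, TUB1 and TUB5 passed in every setting, also with any 1 array left out. Counts for single lines against Col-0 moved more. Quantile normalization gave 3 in AK065297 against 1, 3 in AK069096 against 5, 1 in AK073112 against 2, 7 in AK073675 against 2 and 3 in AK102323 against 1, where the shares of all probes called were 14%, 18.9%, 12%, 17.3% and 17.2%. Array weights gave 4 in AK065297, 0 in AK073112, 4 in AK102323, and 1 for AK069096 against the other 5 lines, against 0, where 30.9%, 0.0186%, 31.7% and 16.8% of all probes were called. Without both AK073112 arrays the counts were 4 in AK065297, 4 in AK073675, 2 in AK102323, 2 in AK073210 and 2 for AK069096 against the others, where 18.5%, 18.9%, 14.4%, 23.1% and 25.7% of all probes were called. The counts for single lines also moved with 1 array left out, as did the shares of all probes called. A line left with 1 array was assumed to vary like the rest. The replicate block gave 2 in AK065297, 0 in AK102323 and 6 in the mean of the lines, where 5.11%, 3.12% and 50.7% of all probes were called. Over all probes, replicate differences correlated over 0.1 in 2 of 15 pairs of lines (-0.068 to 0.175), so the main fit did not pair the arrays by replicate number. Among the 10 tubulins replicate 1 was lower for 10 in AK069096, 9 in AK065297 and 7 each in AK073112 and AK073675. It was lower for 4 each in AK102323 and AK073210. A replicate effect on the tubulins was not tested by itself. The cause of the changes in the counts was not tested. With the deposited values taken as log2, TUB5 stood at -0.19 and TUA5 at -0.13 in the mean of the lines, with the same 6 calls. The files used here hold no channel intensities, so signal over background could not limit which probes were used.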
